A study of Mus musculus with 18 samples.

Results

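The 10 genes of sphingolipid synthesis and turnover, Sptlc1, Sptlc2, Cers2, Cers5, Cers6, Sgms1, Smpd1, Asah1, Sgpl1 and Sgpp1, were followed in fetal mouse lung through each of the 23 probe sets that the array annotation assigns to 1 of these 10 symbols, out of 45037 probe sets tested. Members were chosen by symbol. The lungs came from BALB/c fetuses harvested at gestational day (GD) 18 or GD17, and the 6 groups were flutamide-treated males (18 flut, 17 flut), vehicle-injected males (18 m, 17 m) and vehicle-injected females (18 f, 17 f). Flutamide, an androgen receptor antagonist, was given to the dam as 1 mg per day under the skin, from GD10 until the day before harvest, and the dams of 18 m, 18 f, 17 m and 17 f received vehicle on the same schedule. By the study's account, each of the 18 arrays measured RNA pooled from 3 fetuses of the same sex and treatment, taken from distinct litters. There were 3 pools per group, so that litter and individual differences were averaged within a pool. No group was labelled as flutamide-treated females. Sex is given here by label, and the sex-linked genes of pool 18 flut 3, labelled male, are described below.

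Sphingolipids are membrane lipids built on a long-chain base. Serine palmitoyltransferase, the enzyme whose core is formed by the products of Sptlc1 and Sptlc2, joins serine to palmitoyl-CoA as the first and rate-limiting step, and ceramide synthases add a fatty acid to give ceramide, with Cers2 preferring very long chains and Cers5 and Cers6 preferring palmitoyl chains. Ceramide is turned into sphingomyelin by sphingomyelin synthase (Sgms1 in the Golgi), sphingomyelin is split back to ceramide in the lysosome by acid sphingomyelinase (Smpd1), and acid ceramidase (Asah1) releases sphingosine from ceramide there. Sphingosine 1-phosphate (S1P), made from sphingosine by kinases, is dephosphorylated by the phosphatase Sgpp1 or cut irreversibly by the lyase Sgpl1. Sphingomyelin is also a minor constituent of lung surfactant, and S1P is a ligand of receptors on endothelial and immune cells.

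The start sites of 9 of the 10 genes were found in RefSeq (GRCm38.p6), with 13 promoter windows of 250 bases before and 50 bases after a start site. The window of Asah1 was not used here. The sequences below are those of 3 genes called higher at GD18 in each of the 3 groups (Sptlc2, Cers2, Smpd1) and that of Sgpp1, the member called in a comparison with flutamide at GD17. They are reference sequences and not those of BALB/c. Capitals mark a GC box (GGGCGG, bound by Sp factors, or CCGCCC on the reverse strand), a CCAAT box (CCAAT, bound by NF-Y, or ATTGG on the reverse strand), an E-box (CACGTG, the same on either strand) and part of the androgen response element (AGAACA, or TGTTCT on the reverse strand).
Sptlc2: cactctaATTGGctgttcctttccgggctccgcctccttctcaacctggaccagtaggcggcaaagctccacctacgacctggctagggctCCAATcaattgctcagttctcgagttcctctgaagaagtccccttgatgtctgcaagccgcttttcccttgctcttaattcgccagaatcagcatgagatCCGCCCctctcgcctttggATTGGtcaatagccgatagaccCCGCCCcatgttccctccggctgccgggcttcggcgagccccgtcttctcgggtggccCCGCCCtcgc
Cers2: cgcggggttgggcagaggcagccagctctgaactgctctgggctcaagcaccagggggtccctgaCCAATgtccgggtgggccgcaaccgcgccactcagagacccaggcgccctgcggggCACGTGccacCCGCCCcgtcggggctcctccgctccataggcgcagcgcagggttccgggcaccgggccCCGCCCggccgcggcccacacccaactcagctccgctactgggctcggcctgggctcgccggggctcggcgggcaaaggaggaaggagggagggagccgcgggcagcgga
Smpd1: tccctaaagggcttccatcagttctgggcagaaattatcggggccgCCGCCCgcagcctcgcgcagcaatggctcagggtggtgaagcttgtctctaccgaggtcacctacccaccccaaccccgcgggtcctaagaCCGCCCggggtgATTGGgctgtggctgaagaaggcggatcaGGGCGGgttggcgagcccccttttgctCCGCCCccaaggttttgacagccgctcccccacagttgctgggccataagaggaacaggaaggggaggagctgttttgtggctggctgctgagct
Sgpp1: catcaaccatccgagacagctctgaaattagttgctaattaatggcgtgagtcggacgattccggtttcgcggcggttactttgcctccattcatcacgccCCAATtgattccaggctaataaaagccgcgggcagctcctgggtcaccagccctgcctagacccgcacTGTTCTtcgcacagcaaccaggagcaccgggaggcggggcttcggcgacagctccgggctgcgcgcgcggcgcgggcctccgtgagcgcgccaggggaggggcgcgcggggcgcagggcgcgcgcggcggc
The Sptlc2 window is chr12:87388306-87388605 on the minus strand, that of Cers2 is the upstream one of its 2 windows, chr3:95314940-95315239 on the plus strand, that of Smpd1 is chr7:105554110-105554409 on the plus strand, and that of Sgpp1 is chr12:75735680-75735979 on the minus strand. The GC box was present in 8 of the 13 member windows and in 35.7% of 32851 windows of the same length, and CCAAT in 8 of 13 and 37.4%. Sgms1 and Cers2 each have more than 1 of the 13 windows. The GC content of the member windows ran from 46.0% to 77.3%, and the median over all windows was 52.7%. The E-box was found in 2 of 13, in Cers2 at positions -129 to -124 from the start site and in Cers6 at -22 to -17, beside 7.15% of all windows. AGAACA was found in 1 of 13, in Sgpp1 at -81 to -76 on the reverse strand, beside 19.0% of all windows. A match of letters is a description of the window and not of binding.

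Values are log2 of the array intensity. Array medians lay between 6.34 and 6.40, and the alveolar type II markers (8 genes) averaged 11.85 to 12.29 in the 9 pools of GD18 and 9.44 to 10.61 in the 9 pools of GD17. Several pools stood apart. In 17 f 2, 17 f 3 and 17 m 3 the mean of 7 exocrine pancreas genes was 9.51 to 10.05, against 6.06 to 6.47 in the other 15 pools, and the mean of 5 genes of squamous epithelium was 8.27 to 10.22, against 6.15 to 8.08. Pool 18 flut 3, labelled male, had an Xist level of 11.95, against 8.15 and 8.08 in 18 flut 1 and 18 flut 2 and 12.33 to 12.51 in 18 f. The Y-linked Uty read 7.11 in 18 flut 3, against 8.34 and 8.31 in 18 flut 1 and 18 flut 2 and 3.73 to 3.84 in 18 f. The Y-linked Kdm5d (7.11) and Eif2s3y (7.21) also lay between those of 18 flut 1 and 18 flut 2 and those of 18 f. Whether this pool held RNA of both sexes was not tested. Pool 18 m 3 had the highest mean of 7 liver genes (12.95). That mean was 11.75 in 18 flut 2 and 11.43 to 11.48 in 17 f 2, 17 f 3 and 17 m 3, and it was lowest in 18 f 1 (7.35). Pool 18 m 3 also had the lowest 5′ to 3′ difference of the control probe sets, -0.39 for Gapdh, against 0.14 to 0.27 in the other 17 pools. Member calls lost without these pools are given with their values. In whole lung, fewer cells of a type and less RNA per cell cannot be told apart.

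**Figure D1:**
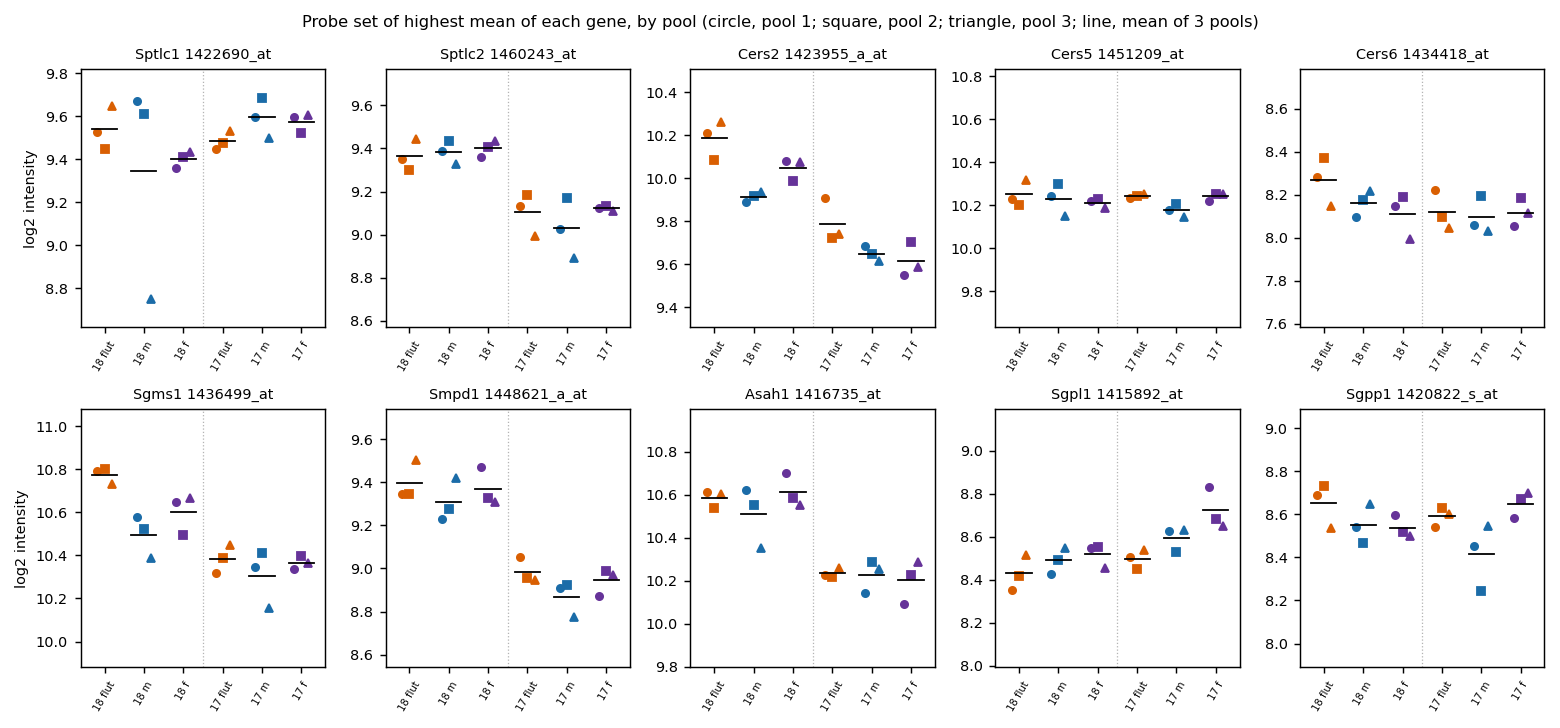
Log2 intensity (y axis, 1.2 units high in each panel) of the 10 genes, each by its probe set of highest mean,, in the 6 groups (x axis). Points are pools (circle 1, square 2, triangle 3) and lines are means of 3 pools. Sptlc2, Cers2, Smpd1 and Asah1 sit higher in each GD18 group than in the GD17 group of the same sex and treatment, Cers5 stays between 10.14 and 10.32, and pool 18 m 3 of Sptlc1 lies at 8.75.

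Most of the calls among the members were between the gestational days. Of the 10 genes, 4, Sptlc2, Cers2, Smpd1 and Asah1, rose at GD18 in flutamide-treated males, in males and in females, and no probe set was called lower in either male group. Of the 23 probe sets, 7 were called higher and 0 lower in 18 flut against 17 flut (limma, Benjamini-Hochberg adjusted p under 0.05), beside 9.61% of all probe sets called higher and 10.7% lower. In 18 m against 17 m, 8 were higher and 0 lower, beside 12.4% and 12.6% of all, and in 18 f against 17 f 8 were higher and 1 lower, beside 16.5% and 17.1%. The median difference over the 23 was 0.13, 0.14 and 0.10 on the log2 scale in flutamide-treated males, males and females, and over all probe sets it was -0.01, 0.01 and 0.02. With 1 probe set per gene, that of highest mean, 5 of 10 genes were higher in flutamide-treated males (beside 13.0% of all genes higher and 13.8% lower), 4 in males (17.7% and 12.4%) and 5 in females (17.2% and 22.5%), and 1 was lower, in females. Without 17 f 2, 17 f 3 and 17 m 3, 17 f 1 stands alone, and fewer of the 23 were called in 18 f against 17 f. Fewer of all probe sets were called there too. These comparisons between days share no pools with each other.

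Fewer member probe sets were called with flutamide or sex. Of the 23 probe sets, 2 were higher and 0 lower in 18 flut against 18 m, beside 0.735% of all called higher and 3.21% lower, and 1 was higher and 0 lower in 17 flut against 17 m, beside 1.28% and 2.28%. In males against females 0 were called at GD18 (1 had an unadjusted p under 0.05), beside 1.85% of all called and 14.3% with an unadjusted p under 0.05, and 1 was lower in males at GD17, beside 0.493% of all called lower and 3.60% higher. Flutamide-treated males and females differed in 0 of 23 at GD18 and in 0 at GD17 (2 and 3 with an unadjusted p under 0.05), beside 0.278% and 4.39% of all called and 9.49% and 23.4% with an unadjusted p under 0.05. Without 17 f 2, 17 f 3 and 17 m 3, where 17 f 1 stands alone, fewer of the 23 were called in 18 flut against 18 m, in 17 flut against 17 m and in 17 m against 17 f. Fewer of all probe sets were called in these comparisons too. Without 18 m 3 and 18 flut 3 the counts for 18 flut against 18 m and for 17 flut against 17 m were 0 and 2. Of all probe sets, 4.22% and 7.97% were called in 18 flut against 18 m and in 17 flut against 17 m without 18 m 3 and 18 flut 3. The comparisons of males with flutamide-treated males and with females share the male pools. At GD17, 10 of the 23 probe sets had every 17 flut pool above every 17 m pool and 2 had them below, beside 14.6% and 14% of all probe sets. The median difference of the 23 was 0.08 in 17 flut against 17 m, beside 0.02 over all probe sets, and 0.10 in 18 flut against 18 m, beside 0.01.

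**Figure D2:**
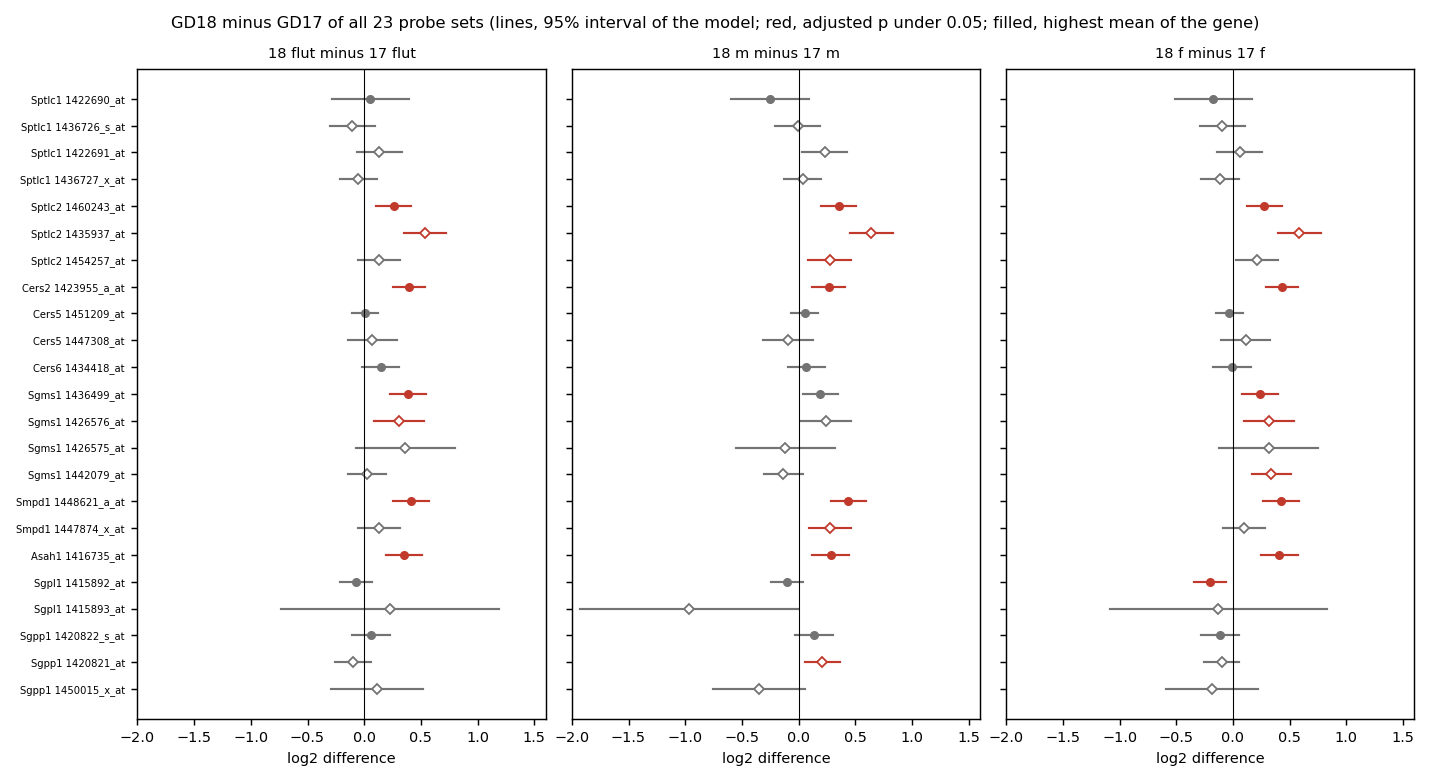
Log2 difference, GD18 minus GD17 (x axis), of all 23 probe sets (y axis) in flutamide-treated males, males and females. Points are differences of means of 3 pools (filled for the probe set of highest mean of the gene), lines are 95% intervals of the limma model, and red marks an adjusted p under 0.05. Called differences lie right of 0, from 0.21 to 0.64, except Sgpl1 1415892_at in females at -0.20.

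Sptlc2, a catalytic subunit of serine palmitoyltransferase, had the largest called difference between days of the 23 probe sets, in each of the 3 groups. Its probe set 1435937_at read 8.80, 8.62 and 8.89 in 18 flut, against 8.18, 8.39 and 8.14 in 17 flut. In males it read 8.49, 8.70 and 8.65 in 18 m, against 7.89, 8.06 and 7.97 in 17 m, and in females 8.66, 8.68 and 8.64 in 18 f, against 8.16, 8.12 and 7.95 in 17 f. The pools of the 2 days did not overlap in any of the 3 groups. The differences were 0.54, 0.64 and 0.58 (SE 0.09 each), that is 1.45-, 1.56- and 1.50-fold, with limma adjusted p of 0.000372, 7.8e-05 and 7.14e-05. The probe set of highest mean, 1460243_at, moved the same way by less, with 9.35, 9.30 and 9.45 in 18 flut against 9.13, 9.18 and 8.99 in 17 flut, and differences of 0.26, 0.35 and 0.28 (adjusted p 0.0171, 0.0019 and 0.00684). The call in flutamide-treated males was lost without 18 m 3 and 18 flut 3 (0.22, adjusted p 0.067), without 18 flut 3 alone (0.22, adjusted p 0.0856) or without 17 flut 3 (0.21, adjusted p 0.0931), and the call in females was lost without 17 f 2, 17 f 3 and 17 m 3 (0.28, adjusted p 0.0711). The third probe set, 1454257_at, was called in males, at 6.43, 6.49 and 6.27 in 18 m against 6.09, 6.04 and 6.23 in 17 m (0.27, adjusted p 0.0311). That call was lost on leaving out 17 m 1, 17 m 2, 18 m 1 or 18 m 2, with limma adjusted p of 0.0735 to 0.112. No Sptlc2 probe set was called with flutamide or sex. The largest such difference was that of 1435937_at in 17 flut against 17 m, 0.26 (95% interval 0.07 to 0.45, adjusted p 0.115).

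Sptlc1, the partner subunit of Sptlc2, was called in no comparison on any of its 4 probe sets. Its probe set of highest mean, 1422690_at, read 9.53, 9.45 and 9.65 in 18 flut, 9.67, 9.61 and 8.75 in 18 m and 9.36, 9.41 and 9.43 in 18 f, against 9.45, 9.48 and 9.53 in 17 flut, 9.60, 9.69 and 9.50 in 17 m and 9.60, 9.52 and 9.60 in 17 f. The days overlapped in flutamide-treated males and in males, and the 18 f pools lay below the 17 f pools. The low value belonged to 18 m 3, in which another Sptlc1 probe set, 1436726_s_at, read 8.18, above the 7.81 and 7.91 of 18 m 1 and 18 m 2. That pool enters the spread used in every comparison of 1422690_at (residual SD 0.22). The absence of a call there does not show that the level was unchanged. In 17 flut minus 17 m the other 3 probe sets gave differences of 0.18 to 0.25, with limma adjusted p of 0.141 to 0.221.

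Cers2, the ceramide synthase for very long acyl chains, was higher at GD18 and, within GD18, higher in 18 flut than in 18 m. It was measured by 1 probe set, at 10.21, 10.08 and 10.26 in 18 flut, 9.89, 9.91 and 9.94 in 18 m and 10.08, 9.98 and 10.08 in 18 f, against 9.91, 9.72 and 9.74 in 17 flut, 9.68, 9.65 and 9.62 in 17 m and 9.55, 9.70 and 9.59 in 17 f. The 18 flut pools lay above all 18 m and all 18 f pools. The difference between days was 0.40 in flutamide-treated males, 0.26 in males and 0.43 in females (SE 0.07 each), with limma adjusted p of 0.000462, 0.00828 and 8.41e-05. The 18 flut minus 18 m difference was 0.27 (SE 0.07, 1.21-fold, adjusted p 0.0335), and it was not called without 18 flut 1 (0.26, adjusted p 0.112), 18 flut 3 (0.23, 0.14), 18 m 1 (0.26, 0.0862) or 18 m 2 (0.27, 0.0806). Without both 18 m 3 and 18 flut 3 it was 0.24 (adjusted p 0.106), and without 17 f 2, 17 f 3 and 17 m 3 it was 0.27 (adjusted p 0.0535). In 17 flut against 17 m the difference was 0.14 (adjusted p 0.258), and the change of the flutamide difference between days was 0.13 (SE 0.10, adjusted p 0.623). In the order of group means, 18 flut (10.18), 18 f (10.05), 18 m (9.91), 17 flut (9.79), 17 m (9.65) and 17 f (9.61), the neighbours 18 flut and 18 f, 18 f and 18 m, 17 flut and 17 m, and 17 m and 17 f did not pass the test, and 18 m and 17 flut were not compared.

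Cers5 and Cers6, the synthases that prefer palmitoyl chains, were called in none of the comparisons. The probe set of highest mean of Cers5 lay between 10.14 and 10.32 in all 18 pools. It read 10.23, 10.20 and 10.32 in 18 flut, 10.24, 10.30 and 10.15 in 18 m and 10.22, 10.23 and 10.19 in 18 f, against 10.23, 10.24 and 10.25 in 17 flut, 10.18, 10.21 and 10.14 in 17 m and 10.22, 10.25 and 10.25 in 17 f. At GD17 the 17 m pools lay below all 17 flut and 17 f pools, and the other groups of each day overlapped. Its 18 flut minus 18 m difference was 0.02 (95% interval -0.10 to 0.14). Cers6 read 8.28, 8.37 and 8.14 in 18 flut, 8.10, 8.18 and 8.22 in 18 m and 8.15, 8.19 and 7.99 in 18 f, against 8.22, 8.10 and 8.05 in 17 flut, 8.06, 8.20 and 8.03 in 17 m and 8.05, 8.19 and 8.11 in 17 f, with the groups overlapping. Its differences between days were 0.14, 0.07 and -0.01 in flutamide-treated males, males and females, with limma adjusted p of 0.235, 0.595 and 0.959. The interval in females ran from -0.17 to 0.16.

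Smpd1, acid sphingomyelinase, rose by nearly the same amount in each group. Its probe set of highest mean, 1448621_a_at, read 9.35, 9.35 and 9.50 in 18 flut against 9.06, 8.95 and 8.95 in 17 flut. It read 9.23, 9.28 and 9.42 in 18 m against 8.91, 8.92 and 8.78 in 17 m, and 9.47, 9.33 and 9.31 in 18 f against 8.87, 8.99 and 8.97 in 17 f. Within each group the days did not overlap. The differences were 0.41, 0.44 and 0.42 (SE 0.07 each), or 1.33-, 1.36- and 1.34-fold, with limma adjusted p of 0.000678, 0.000358 and 0.000246, and each stayed called on leaving out any 1 pool. The second probe set, 1447874_x_at, was called in males, at 6.02, 5.94 and 6.17 in 18 m against 5.63, 5.79 and 5.88 in 17 m (0.28, adjusted p 0.0289), but not on leaving out 17 m 1 (0.21, 0.134), 17 m 2 (0.29, 0.0556), 18 m 3 (0.22, 0.116) or 18 m 3 and 18 flut 3 (0.22, 0.134). Smpd1 differed by 0.09 in 18 flut against 18 m and by 0.12 in 17 flut against 17 m, with adjusted p of 0.573 and 0.394.

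Asah1, acid ceramidase, was also higher at GD18. Its 1 probe set read 10.61, 10.54 and 10.61 in 18 flut, 10.62, 10.55 and 10.35 in 18 m and 10.70, 10.59 and 10.55 in 18 f, against 10.23, 10.22 and 10.26 in 17 flut, 10.14, 10.29 and 10.25 in 17 m and 10.09, 10.23 and 10.29 in 17 f. The days did not overlap in any group. The differences were 0.35, 0.28 and 0.41 (SE 0.08, 0.08 and 0.08) with limma adjusted p of 0.00292, 0.0112 and 0.000398, and the call in males was lost without 17 m 1 (0.24, adjusted p 0.0552) or 18 m 1 (0.23, 0.0503). With flutamide or sex its differences lay between -0.10 and 0.08, and none was called.

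Beside these differences between days, markers of several cell types moved too. The means of 4 alveolar type I genes were 10.80 to 11.11 in the 9 GD18 pools and 9.16 to 9.84 in the 9 GD17 pools, those of 4 macrophage genes were 9.16 to 9.45 and 8.46 to 8.68, and those of 4 genes of dividing cells were 9.79 to 10.52 and 10.67 to 10.92. The alveolar type II means are given above. Their part in the differences of Sptlc2, Cers2, Smpd1 and Asah1 was not tested.

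Sgms1, the Golgi sphingomyelin synthase, was called at GD18 in flutamide-treated males and in females, and its 4 probe sets were not all called in the same groups. The probe set of highest mean, 1436499_at, read 10.79, 10.80 and 10.73 in 18 flut, 10.58, 10.52 and 10.39 in 18 m and 10.65, 10.50 and 10.67 in 18 f, against 10.32, 10.39 and 10.45 in 17 flut, 10.34, 10.41 and 10.16 in 17 m and 10.34, 10.40 and 10.36 in 17 f. The 18 flut pools lay above the pools of every other group. The difference between days was 0.39 in flutamide-treated males and 0.24 in females (limma adjusted p 0.0012 and 0.0213) and 0.19 in males (adjusted p 0.0714). In males it was 0.25 (adjusted p 0.033) without 18 m 3. The call in females was lost on leaving out 17 f 1, 17 f 3, 18 f 1 or 18 f 3, with adjusted p of 0.0551 to 0.0851, and without 17 f 2, 17 f 3 and 17 m 3 (0.27, adjusted p 0.0821). The 18 flut minus 18 m difference was 0.28 (SE 0.07, 1.21-fold, adjusted p 0.0484), and it was lost on leaving out any of 18 flut 1, 18 flut 2, 18 flut 3, 18 m 2 or 18 m 3, with differences of 0.22 to 0.30 and adjusted p of 0.0892 to 0.142. It was 0.25 (adjusted p 0.126) without 18 m 3 and 18 flut 3 and 0.28 (adjusted p 0.0531) without 17 f 2, 17 f 3 and 17 m 3. In 18 flut against 18 f the difference was 0.17 (95% interval 0.01 to 0.33, adjusted p 0.476).

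Of the other Sgms1 probe sets, 1426576_at read 10.29, 10.30 and 10.26 in 18 flut and 10.20, 10.18 and 10.21 in 18 f, against 9.94, 9.97 and 10.02 in 17 flut and 9.96, 9.81 and 9.88 in 17 f, with differences between days of 0.31 and 0.32 (limma adjusted p 0.0456 and 0.0263). Leaving out any 1 of the 6 pools compared ended the call in flutamide-treated males (0.29 to 0.33, adjusted p 0.0766 to 0.126), and leaving out any 1 but 17 f 1 ended that in females (0.28 to 0.33, adjusted p 0.0517 to 0.0945). On leaving out 17 f 2, 17 f 3 and 17 m 3 they were 0.31 (adjusted p 0.0584) in flutamide-treated males and 0.24 (adjusted p 0.321) in females. In males it read 10.07, 10.23 and 9.69 in 18 m against 9.76, 9.88 and 9.61 in 17 m (0.25, adjusted p 0.1), and without 18 m 3 the difference was 0.40 (adjusted p 0.0016). For 1426575_at the sign itself turned with that pool. It read 9.25, 9.32 and 8.11 in 18 m against 8.88, 9.12 and 9.03 in 17 m, a difference of -0.12 (adjusted p 0.749), which was 0.28 (adjusted p 0.00887) without 18 m 3. In flutamide-treated males 1426575_at read 9.34, 9.26 and 9.24 in 18 flut, above the 8.96, 8.90 and 8.90 of 17 flut. In females it read 9.34, 9.28 and 9.24 in 18 f, above the 8.97, 8.97 and 8.98 of 17 f. Neither of these rises was called with all pools.

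The probe set 1442079_at of Sgms1 was the 1 member probe set in which the sex difference changed between days. It read 7.00, 7.28 and 7.15 in 18 m against 7.42, 7.27 and 7.33 in 18 f, and 7.24, 7.39 and 7.21 in 17 m against 7.04, 6.98 and 6.99 in 17 f. The male pools lay above the female pools at GD17 and overlapped them at GD18. The male minus female difference was -0.20 at GD18 and 0.28 at GD17 (adjusted p 0.26 and 0.0652), and the change between days was -0.47 (SE 0.11, limma adjusted p 0.0188), beside 6.54% of all probe sets called for this change. Within females the level was higher at GD18 by 0.34 (adjusted p 0.00315), and by 0.30 (adjusted p 0.103) without 17 f 2, 17 f 3 and 17 m 3. The change was not called without 17 m 2 (-0.42, adjusted p 0.0557), without 18 f 1 (-0.43, 0.0589), or without 17 f 2, 17 f 3 and 17 m 3 (-0.47, 0.163), where females at GD17 are represented by 17 f 1 alone. The other 3 probe sets of the gene gave changes of -0.43 to -0.04, none called, and the -0.43, of 1426575_at, was -0.04 without 18 m 3. For the change of the flutamide difference between days 0 of 23 probe sets were called (1 with an unadjusted p under 0.05), beside 0.364% of all called and 11.8% with an unadjusted p under 0.05.

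**Figure D3:**
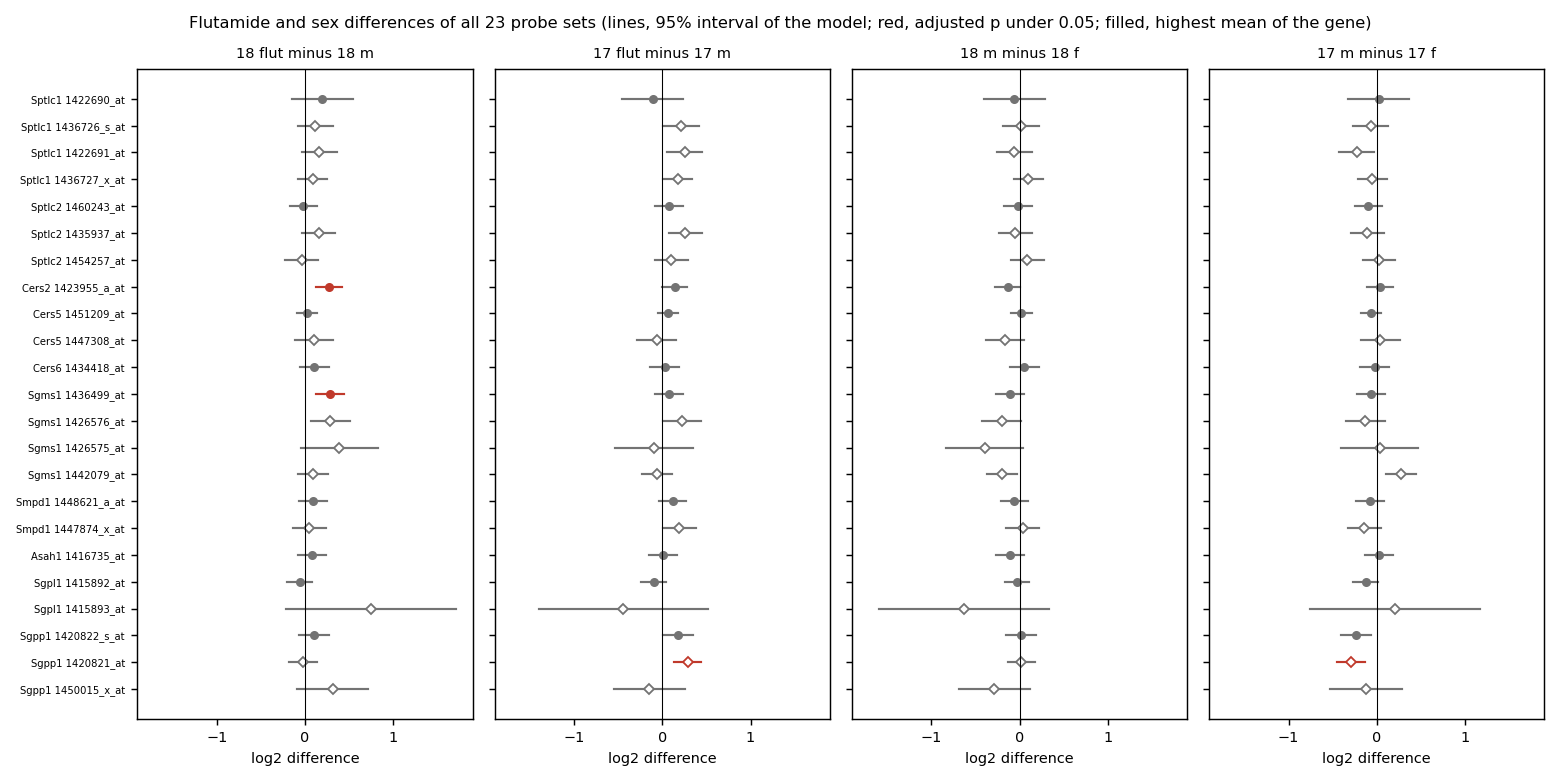
Log2 difference (x axis) of all 23 probe sets (y axis) in flutamide-treated males minus males and in males minus females at each day. Points, lines and colours are as in the plot of the differences between days. The 4 red points are Cers2 (0.27) and Sgms1 1436499_at (0.28) in 18 flut minus 18 m, and Sgpp1 1420821_at in 17 flut minus 17 m (0.29) and in 17 m minus 17 f (-0.29).

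Sgpp1, the phosphatase that returns S1P to sphingosine, was lower in 17 m than in both other groups of GD17 on 1 of its 3 probe sets. The probe set 1420821_at read 7.33, 7.37 and 7.35 in 17 flut, against 7.07, 6.96 and 7.15 in 17 m and 7.33, 7.38 and 7.35 in 17 f. The pools of 17 flut and 17 f overlapped and lay above all 17 m pools. The 17 flut minus 17 m difference was 0.29 (SE 0.07, 1.22-fold, limma adjusted p 0.0443) and the 17 m minus 17 f difference was -0.29 (SE 0.07, adjusted p 0.0364), the same male pools entering both, and 17 flut minus 17 f was 0.00 (95% interval -0.16 to 0.16). At GD18 it read 7.29, 7.32 and 7.13 in 18 flut, 7.26, 7.18 and 7.37 in 18 m and 7.33, 7.29 and 7.13 in 18 f, with the groups overlapping and differences of -0.02 (18 flut minus 18 m) and 0.02 (18 m minus 18 f). The level in 18 m exceeded that in 17 m by 0.21 (adjusted p 0.048). The change between days was -0.31 for flutamide (adjusted p 0.245) and 0.31 for sex (adjusted p 0.0947). The study had placed Sgpp1 on a list of lipid genes chosen on these samples, so the calls are not independent evidence. It gives Sgpp1 at GD17 both as m > flut > f and as higher in females than in males. The low 17 m pools of 1420821_at differ from the first of these orders.

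Both Sgpp1 calls at GD17 were lost on leaving out most of the single pools. In 17 flut against 17 m, 3.55% of all probe sets were called with all pools and 4.11% without 17 m 3. Without another of the 6 pools the share was 0.913% to 2.30%. In 17 m against 17 f these shares were 4.10%, 4.85% and 2.28% to 4.65%. The 17 flut minus 17 m call held without 17 m 3 (0.33, limma adjusted p 0.0335) and was lost without any other of the 6 pools (0.24 to 0.30, adjusted p 0.106 to 0.145) and without 17 f 2, 17 f 3 and 17 m 3 (0.33, adjusted p 0.0572). The 17 m minus 17 f call likewise held without 17 m 3 (-0.33, adjusted p 0.0259) and was lost without any other of its 6 pools (-0.30 to -0.24, adjusted p 0.059 to 0.165), and it was -0.31 (adjusted p 0.335) without 17 f 2, 17 f 3 and 17 m 3. The call of 18 m against 17 m was lost without 17 m 1, 17 m 2, 18 m 1 or 18 m 3 (0.16 to 0.21, adjusted p 0.0778 to 0.183), without 17 f 2, 17 f 3 and 17 m 3 (0.26, adjusted p 0.055) and without 18 m 3 and 18 flut 3 (0.16, adjusted p 0.146). The probe set of highest mean, 1420822_s_at, read 8.54, 8.63 and 8.60 in 17 flut, against 8.45, 8.25 and 8.55 in 17 m and 8.58, 8.67 and 8.70 in 17 f. Its 17 flut and 17 m pools overlapped, with differences of 0.18 for 17 flut minus 17 m (adjusted p 0.23) and -0.23 for 17 m minus 17 f (adjusted p 0.125). The third probe set, 1450015_x_at, read 7.09, 7.09 and 7.12 in 17 flut, below the 7.16, 7.23 and 7.34 of 17 m, with a difference of -0.15 (95% interval -0.55 to 0.26).

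Marker means also separated the groups of these calls. At GD17 the mean of 4 mesenchyme genes was 11.58 to 11.71 in 17 flut, against 11.82 to 11.90 in 17 m and 11.63 to 11.69 in 17 f, so that 17 m lay above both other groups. That of 4 erythroid genes was 8.15 to 8.22 in 17 flut, against 7.89 to 8.12 in 17 m and 8.18 to 8.38 in 17 f. The alveolar type II, alveolar type I, club and ciliated means were higher in every 17 flut pool than in every 17 m pool, and that of dividing cells was lower. At GD18, where Cers2 and Sgms1 1436499_at were called, the median of the means of dividing cells was 9.81 in 18 flut, against 10.48 in 18 m, without overlap, and the means of club cells were 12.18 to 12.54 in 18 flut, against 11.96 to 12.10 in 18 m. Those of ciliated cells were 7.37 to 7.38 in 18 flut, against 7.43 to 7.74 in 18 m. Their part in these differences was not tested.

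**Figure D4:**
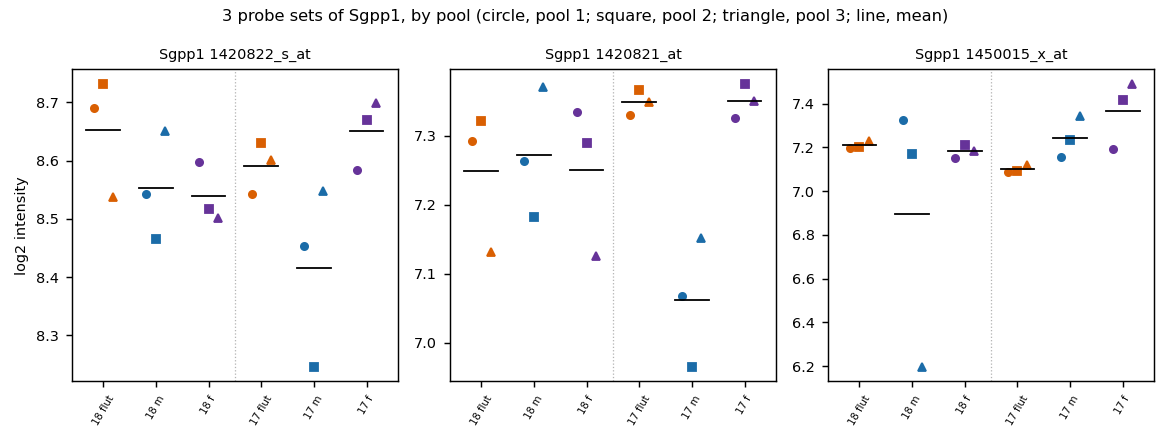
Log2 intensity (y axis, a scale of its own in each panel) of the 3 probe sets of Sgpp1 in the 6 groups (x axis). Points are pools (circle 1, square 2, triangle 3) and lines are means of 3 pools. In 1420821_at the 17 m pools, at 6.96 to 7.15, lie below all 17 flut and 17 f pools, and in 1450015_x_at pool 18 m 3 lies lowest, at 6.19.

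Sgpl1, the S1P lyase that ends the pathway, was lower at GD18 in females on its probe set of highest mean. The probe set 1415892_at read 8.55, 8.55 and 8.46 in 18 f against 8.83, 8.68 and 8.65 in 17 f, without overlap, a difference of -0.20 (SE 0.07, limma adjusted p 0.0257). The call was lost without 17 f 1 (-0.15, adjusted p 0.128) or 18 f 3 (-0.17, 0.103). In flutamide-treated males the level was 8.35, 8.42 and 8.52 in 18 flut against 8.50, 8.45 and 8.54 in 17 flut, and in males 8.43, 8.49 and 8.55 in 18 m against 8.63, 8.53 and 8.63 in 17 m, with differences of -0.07 and -0.11 (adjusted p 0.569 and 0.29). The difference from females at GD17 was -0.22 in 17 flut (adjusted p 0.0651) and -0.13 in 17 m (adjusted p 0.367).

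The second Sgpl1 probe set, 1415893_at, was dominated by 1 pool. It read 7.76, 7.49 and 4.95 in 18 m, and 7.19, 7.21 and 7.36 in 17 flut against 7.65, 7.72 and 7.72 in 17 m. The value of 18 m 3 minus the mean of 18 m 1 and 18 m 2 was -2.68, the 12th lowest such difference of 45037 probe sets. The 17 flut pools lay below all 17 m pools. With all pools the 17 flut minus 17 m difference of -0.44 had a 95% interval of -1.40 to 0.52 (limma adjusted p 0.615), and without 18 m 3 and 18 flut 3 the difference of -0.44 had an adjusted p of 0.0063. The probe set of highest mean of the same gene differed by -0.10 in 17 flut against 17 m (adjusted p 0.435).

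Pool 18 m 3 was low on probe sets of 4 members, but not on every probe set of the same genes. Besides Sgpl1 1415893_at, the difference from the mean of 18 m 1 and 18 m 2 was -1.18 for Sgms1 1426575_at, -1.05 for Sgpp1 1450015_x_at and -0.89 for Sptlc1 1422690_at, so that 4 of 23 probe sets were more than 0.5 lower, beside 6.65% of all probe sets. The same difference was 0.09 for Sgpl1 1415892_at and 0.32 for Sptlc1 1436726_s_at. In Sgms1 it was also below 0 for 1426576_at (-0.46) and 1436499_at (-0.16), and it was 0.00 for 1442079_at. In none of the other 17 pools was a member probe set lower than the other pools of its group by more than 0.5. The 5′ to 3′ difference of the actin control probe sets in 18 m 3 was -0.80, against -0.49 to -0.34 in the other 17 pools. The part of RNA quality in these low values was not tested.

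**Figure D5:**
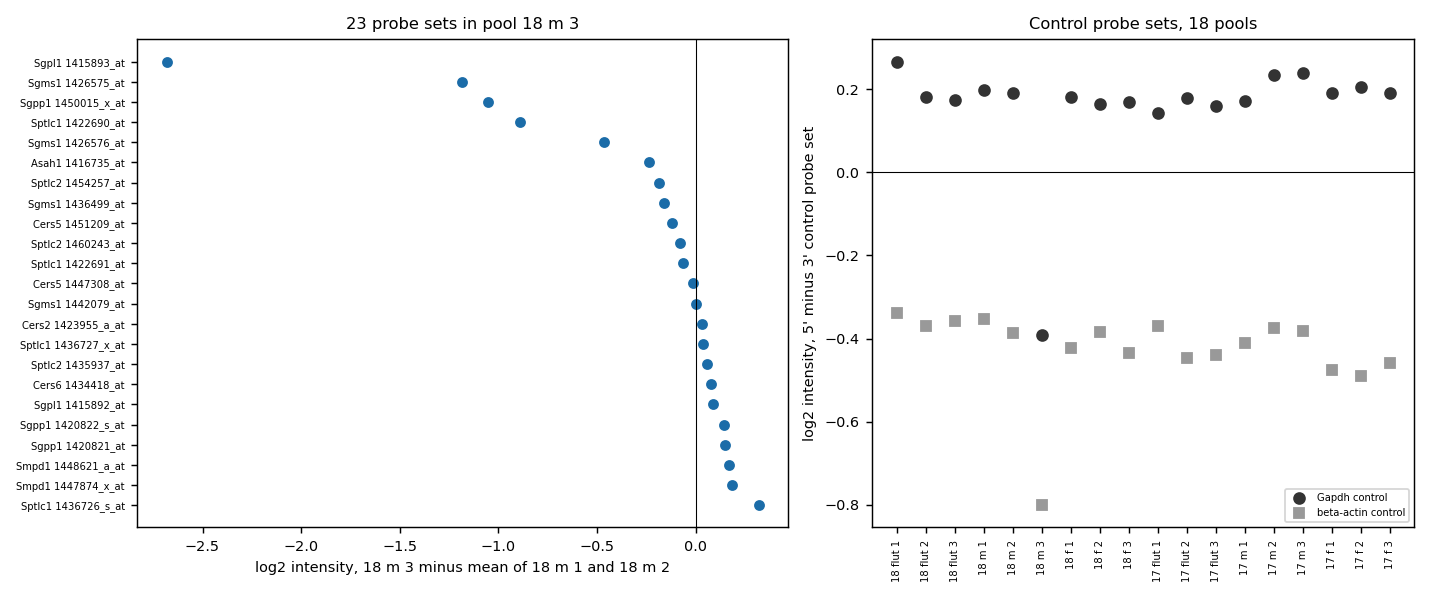
Left, log2 intensity of pool 18 m 3 minus the mean of 18 m 1 and 18 m 2 (x axis) for the 23 probe sets (y axis). Right, 5′ minus 3′ log2 difference of the actin and Gapdh control probe sets (y axis) in the 18 pools (x axis). Sgpl1 1415893_at lies at -2.68, and 18 m 3 has the lowest control differences, -0.80 for actin and -0.39 for Gapdh.

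The other genes of the pathway, 55 with a probe set in 10 lists, were also compared between days. At GD18, 17 (30.9%) were higher and 4 (7.27%) lower in flutamide-treated males, beside 13.0% and 13.8% of all genes. In males 18 (32.7%) were higher and 6 (10.9%) lower, beside 17.7% and 12.4%, and in females 16 (29.1%) were higher and 11 (20.0%) lower, beside 17.2% and 22.5%. Without 17 f 2, 17 f 3 and 17 m 3, where 17 f 1 stands alone, fewer were called in each direction in females, and fewer of all probe sets were called. With flutamide, 0 were called at GD17 (7 with an unadjusted p under 0.05) and 1 was lower at GD18, beside 2.69% of all genes called at GD17 and 3.67% called lower at GD18. In males against females, 1 was higher at GD18 and 1 lower at GD17, beside 1.43% and 0.742% of all genes.

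Of 4 ceramidases, 2 were higher in 18 flut against 17 flut, 2 in males and 3 in females, beside the 13.0%, 17.7% and 17.2% of all genes called higher. The calls included the Golgi ceramidase Acer2, at 9.16, 8.90 and 9.25 in 18 flut against 7.87, 7.60 and 7.79 in 17 flut (1.35), with 1.08 in males and 1.39 in females. Asah2, the neutral ceramidase, was higher by 0.31, 0.69 and 0.59, the first lost without 18 m 3 and 18 flut 3 (0.27, limma adjusted p 0.0897). The third call in females, Acer3, was lost without 17 f 2, 17 f 3 and 17 m 3 (0.28, adjusted p 0.121). Of 4 genes of the kinase, phosphatase and aldehyde steps, 2 were higher in each group. Sphk1, a sphingosine kinase that makes S1P, was higher by 1.41, 1.18 and 1.29. Aldh3a2, which oxidizes the aldehyde that the lyase releases, was higher by 0.39, 0.44 and 0.46. The other sphingosine kinase, Sphk2, was not called higher in any of the 3 groups. Of 7 S1P receptors and transporters, 3, 3 and 2 were higher and 0 lower, with the receptor S1pr1 at 0.75, 0.42 and 0.61. Leaving out 17 f 2, 17 f 3 and 17 m 3 ended the calls of the transporter Spns2 in both male groups (limma adjusted p 0.0614 and 0.132) and of S1pr3 in females (0.489), and leaving out 18 m 3 and 18 flut 3 ended those of Spns2 in both (0.103 and 0.161) and of S1pr3 in flutamide-treated males (0.0735). S1pr1 is a gene of endothelial cells, and the mean of 4 endothelial markers was 9.21 to 9.55 in the GD18 pools and 8.81 to 9.04 in the GD17 pools, whose part in this was not tested.

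Of 10 measured genes of lysosomal glycosphingolipid breakdown 6 were higher in each group at GD18, beside the same 13.0%, 17.7% and 17.2% of all genes, and 0 were lower in flutamide-treated males and 1, Gla, in males and in females. Leaving out 17 f 2, 17 f 3 and 17 m 3, the calls of Gla (limma adjusted p 0.161) and Arsa (0.136) in females and of Hexa in males (0.123) were lost, and without 18 m 3 and 18 flut 3 those of Psap in flutamide-treated males (0.0549) and of Gla (0.0988) and Hexa (0.149) in males. Examples were the sialidases Neu3 (0.68, 0.76 and 0.84) and Neu1 (0.57, 0.49 and 0.65) and the galactosylceramidase Galc (0.49, 0.53 and 0.66), in flutamide-treated males, males and females. Of 8 glycosphingolipid synthesis genes, the lactosylceramide synthase B4galt6 was lower in each group (-0.41, -0.42 and -0.82). Of 8 genes of sphingomyelin synthesis and breakdown, 1 was higher in each group, Smpdl3a, a relative of Smpd1 (0.75, 1.08 and 0.80), and 1, 3 and 3 were lower, among them Smpdl3b (-0.36, -0.37 and -0.50), whose calls in males and females were lost without 17 f 2, 17 f 3 and 17 m 3 (limma adjusted p 0.0544 and 0.0718), and that in males without 18 m 3 and 18 flut 3 (0.0568). Of 5 carriers, the ceramide transporter Cert1 was higher (0.38, 0.34 and 0.58) and Plekha8 lower (-0.25, -0.26 and -0.36), the call in males being lost without 18 m 3 and 18 flut 3 (limma adjusted p 0.0773). Of 3 genes of the reductase and desaturase steps 2, 1 and 1 were higher, with the desaturase Degs1 higher in the 2 male groups (0.23 and 0.21) and the reductase Kdsr higher in flutamide-treated males and in females (0.24 and 0.31). When 17 f 2, 17 f 3 and 17 m 3 were left out the Degs1 call in males (limma adjusted p 0.0744) and both Kdsr calls (0.0742 and 0.163) were lost, and the Degs1 call in males was also lost without 18 m 3 and 18 flut 3 (0.131). Of 2 other ceramide synthases, Cers3 was lower in females (-0.66), and that call was lost without 17 f 2, 17 f 3 and 17 m 3 (-0.36, limma adjusted p 0.0757).

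Among the other subunits and regulators of serine palmitoyltransferase, 4 of 6 measured, Ormdl1, whose product restrains the enzyme, was called with treatment and with sex at GD18. It read 8.86, 8.83 and 8.83 in 18 flut, 9.13, 9.17 and 9.05 in 18 m and 8.78, 8.84 and 8.79 in 18 f, and 9.11, 9.20 and 9.22 in 17 flut, 9.26, 9.20 and 9.17 in 17 m and 9.24, 9.50 and 9.48 in 17 f. The 18 m pools lay above all 18 flut and 18 f pools. The differences were -0.28 in 18 flut against 18 m and 0.31 in 18 m against 18 f (limma adjusted p 0.0309 and 0.0305), which share the male pools. Without 18 m 3 and 18 flut 3 they were -0.31 (adjusted p 0.0531) and 0.35 (adjusted p 0.0188). Sptssb, a small activating subunit, was lower in 17 flut than in 17 f by 1.52 and Gltp, a glycolipid carrier, was lower in 17 m than in 17 f by 0.30, but Sptssb read 7.38 and 7.18 in 17 f 2 and 17 f 3 and 5.57 in 17 f 1, and neither was called without 17 f 2, 17 f 3 and 17 m 3 (adjusted p 0.441 and 0.634).

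The genes that the study grouped under sphingolipid synthesis, chosen on these samples, overlap the 10 members in Sgpp1 alone. Of the 6 genes of that list with a probe set, Crls1, the cardiolipin synthase, was lower in 18 flut than in 18 m by 0.33 and higher in 18 m than in 18 f by 0.26, and lower in 17 m than in 17 f by 0.26 (limma adjusted p 0.0072, 0.0479 and 0.0243). With 17 f 2, 17 f 3 and 17 m 3 left out the 17 m minus 17 f difference was -0.13 (adjusted p 0.735) and the 18 m minus 18 f one 0.26 (adjusted p 0.0577), and without 18 m 3 and 18 flut 3 the 18 m minus 18 f one was 0.21 (adjusted p 0.0796). Pnliprp2, a lipase of the exocrine pancreas, was lower in 17 m than in 17 f by 1.05 (adjusted p 0.0362). It read 4.10, 4.08 and 4.70 in 17 m against 4.39, 5.86 and 5.76 in 17 f, and the high pools were those high in pancreas genes. Without 17 f 2, 17 f 3 and 17 m 3 the difference was -0.31 (adjusted p 0.43).

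Across the 18 pools, the genes whose levels ran most like those of the 4 members that rose at GD18 were Gstk1, Rarres2 and Tuba8 for Sptlc2 (Pearson r 0.961, 0.950 and 0.950), Ctnna1, Msn and Cdh1 for Cers2 (0.964, 0.955 and 0.953), Gpam, Met and Frmd6 for Smpd1 (0.983, 0.982 and 0.981) and Cldn10, Vwa5a and Anxa2 for Asah1 (0.980, 0.972 and 0.969). They were Pdcl, Entr1 and Cdc42 for Sptlc1 (0.951, 0.939 and 0.937), Rerg, Inpp5b and Sema3g for Sgms1 (0.922, 0.921 and 0.921) and Exoc6, Apoc3 and Klk11 for Sgpp1 (0.894, 0.821 and 0.795). They were Gng2, Chd4 and Gm2137 for Sgpl1 (0.858, 0.855 and 0.843), 2610001J05Rik, Azin1 and Gm16136 for Cers5 (0.834, 0.819 and 0.794) and Obox3, Rgma and Pank1 for Cers6 (0.781, 0.766 and 0.747). The pools share day, sex and treatment, and each r is the highest of 18193 genes, so these are descriptions.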

How the data were processed

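Total RNA of 18 pools of fetal mouse lung was hybridised to Affymetrix MOE430 2.0 arrays. The authors extracted images with GCOS and subtracted background, normalized and summarized probe sets by RMA, and tested with limma, whose version is not given in the sources used here. The deposited intensity values are on a linear scale, although the analysis plan had assumed log2, so log2 was taken here. Of 45101 probe sets, 64 AFFX controls were excluded. The platform annotation gave 1 symbol to 34945 probe sets, several to 932 and none to 9160. Groups were read from the sample labels.

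With limma 3.58.1 in R 4.3.3, 6 group means were estimated for every one of the 45037 remaining probe sets (12 residual degrees of freedom), variances were moderated with eBayes, and p was adjusted by Benjamini-Hochberg within each comparison. Called means an adjusted p under 0.05. The fit was tested on simulated data. Every probe set of a member was tested; where 1 stands for a gene it is that of the highest mean over the 18 arrays. Each main probe set and each called one is given by pool, and up to 3 called genes of each pathway list are named, those with the smallest p. Members and lists were chosen with earlier results of these data known. The p-values measure the spread between pools, and the number of arrays limits precision. No batch was given in the sources used here. Alternatives were median-centred arrays, quantile normalization applied again, leaving out dim probe sets, weighting arrays, counting genes, a replicate block and pools left out. Repeating the pathway counts without the pools that stood apart was chosen after seeing the data. Promoters came from RefSeq (GRCm38.p6).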

Additional observations from a re-analysis of the deposited data

Results flagged for a closer look

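The 4 probe sets here had a sex difference that changed between GD18 and GD17, by the limma test of that change (male minus female at GD18, minus the same at GD17). Sgms1 1442079_at changed by -0.47 (SE 0.11, adjusted p 0.019). Ormdl1 changed by 0.51 (SE 0.10, adjusted p 0.0045) and by 0.32 (adjusted p 0.172) without 17 f 2, 17 f 3 and 17 m 3. Crls1, from the list the study chose on these samples, changed by 0.52 (SE 0.09, adjusted p 0.002) and by 0.39 (adjusted p 0.0956) without those pools. Aldh9a1, from the same list, changed by 0.47 (SE 0.13, adjusted p 0.039), by 0.38 (adjusted p 0.322) without those pools and by 0.36 (adjusted p 0.061) without 18 m 3 and 18 flut 3. In Ormdl1 the females read 8.78, 8.84 and 8.79 in 18 f against 9.24, 9.50 and 9.48 in 17 f, and the males read 9.13, 9.17 and 9.05 in 18 m against 9.26, 9.20 and 9.17 in 17 m. The pools 17 f 2 and 17 f 3, high in pancreas genes, read highest of the 18 pools for Ormdl1 and Crls1. For Aldh9a1 they read 10.34 and 10.32, below the 10.35 of 18 m 3.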

How the results depend on the processing

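Counts below are member probe sets called of 23. For 17 flut against 17 m (1 with all pools) the count was 0 with the replicate block, with 1 probe set per gene and without 17 f 2, 17 f 3 and 17 m 3, and 2 without 18 m 3 and 18 flut 3. For 18 flut against 18 m (2) it was 1 with arrays centred on their medians and with the replicate block, and 0 without either set of pools. For 17 m against 17 f (1) it was 2 with the dimmer probe sets left out (those under the median level), 3 with array weights, and 0 with 1 probe set per gene and without 17 f 2, 17 f 3 and 17 m 3. For 17 flut against 17 f (0) it was 1 with the dimmer probe sets left out, 3 with array weights and 2 without 18 m 3 and 18 flut 3. The share of all probe sets called was 10.3%, 19.2% and 9.05% in these settings, against 4.39% in the main fit. For 17 m against 17 f it was 7.75% with the dimmer probe sets left out and 7.85% with array weights, against 4.10%. Without 18 m 3 and 18 flut 3 it was 7.97% for 17 flut against 17 m, against 3.55%, and 5.89% for 18 m against 18 f, against 1.85%. With 1 probe set per gene the count of members was 4 for 18 m against 17 m (8). Without 17 f 2, 17 f 3 and 17 m 3 fewer of all probe sets were called than in the main fit. This held for 17 flut against 17 m, 18 flut against 18 m, 17 m against 17 f and the change of the sex difference. The count for 18 f against 17 f (9) was lower there too, as was the share of all probe sets. For the change of the sex difference between days (1) it was 2 with centred arrays and 0 with 1 probe set per gene and without 17 f 2, 17 f 3 and 17 m 3. Leaving out each pool in turn gave 0 to 1 for 17 flut against 17 m, for 18 flut against 18 m, for 17 m against 17 f and for the change of the sex difference, 0 throughout for the other comparisons of treatment and sex, 5 to 6 for 18 flut against 17 flut (7), 4 (without 17 m 1) to 9 (without 18 m 3) for 18 m against 17 m, and 6 to 9 for 18 f against 17 f. No member call changed sign in any of these. Of the pathway genes, chosen after seeing the data as a result to repeat, without 18 m 3 and 18 flut 3 there were 2 called for 17 flut against 17 m (0), 0 for 18 flut against 18 m (1), 2 for 17 m against 17 f (1), 2 for 18 m against 18 f (1) and 5 for 17 flut against 17 f (2). The shares of all probe sets called were 7.97%, 4.22%, 6.11%, 5.89% and 9.05% in the same order. Without 17 f 2, 17 f 3 and 17 m 3 fewer pathway genes were called for 17 m against 17 f, for 17 flut against 17 f and for the change of the sex difference (1). Fewer of all probe sets were called there too. Without those pools 17 f 1 stands alone and is assumed to vary like the pools of the other groups. The cause was not tested, beyond the fewer samples or probe sets that these settings hold.

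The labels number the pools 1 to 3 in each group, but nothing in them says that a number was shared by litter or day. Over 45 pairs of pools with the same number in different groups, deviations from the group means correlated at 0.008 on average (-0.315 to 0.373), 8 of 18 pools correlated best with their own number, and the consensus correlation of the replicate block was -0.037. With it, Sgpp1 1420821_at in 17 flut against 17 m had a difference of 0.29 and an adjusted p of 0.0501, and Sgms1 1436499_at in 18 flut against 18 m one of 0.28 and 0.0552. The call of Sgpp1 1420821_at in 18 m against 17 m was lost too (0.21, adjusted p 0.0516).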
